A study of Mus musculus with 8 samples.

Results

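A set of 7 genes makes up the stromal support programme of the bone marrow niche described here, namely Cxcl12, Kitl, Lepr, Ebf3, Foxc1, Il7 and Vcam1. They were chosen by name as genes of the Cxcl12-abundant reticular cell, with earlier results of these data known, and all 7 were found by symbol among the 50462 gene identifiers of the table. RNA-seq was performed on medial knee cartilage caps, 1 library per mouse, from male wild-type C57BL/6J mice. The naive group held 4 mice that had no operation (day 0, aged 11 weeks). The DMM group held 4 mice collected on day 42 after destabilisation of the medial meniscus, aged 17 weeks. In DMM surgery the ligament that tethers the medial meniscus to the tibia is cut, and osteoarthritis of the joint follows. Neither group carried an engineered allele or a drug treatment other than the anaesthetic and analgesic of surgery in the DMM mice. No sham-operated mice were analysed here, so the operation and the difference in age cannot be told apart.

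Reticular cells are mesenchymal cells that lie around the sinusoids of bone marrow and hold blood stem cells and lymphoid precursors in place. They are known for secreting the chemokine CXCL12, which retains CXCR4-bearing cells, the KIT ligand that stem cells need, and IL7, which drives early B cell development. They carry the leptin receptor and the adhesion molecule VCAM1, and their identity is maintained by the transcription factors EBF3 and FOXC1. Some of the 7 genes are also used outside marrow, and articular cartilage itself holds no marrow. The values below are for bulk tissue, in which fewer cells of a type and less RNA per cell cannot be told apart.

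Promoter sequence was available for 5 of the 7 genes in the RefSeq table (GRCm38.p6), and 4 windows are shown to set the genes beside each other: Foxc1, whose counts differed between the groups, Cxcl12 and Lepr, which varied together, and Ebf3, which encodes a factor that binds DNA itself. Each sequence runs 5′ to 3′ on the gene's own strand and ends just before the start of the annotated gene. The positions are chr13:31806396-31806632 (plus strand) for Foxc1, chr6:117168285-117168534 (plus strand) for Cxcl12, chr4:101717157-101717403 (plus strand) for Lepr and chr7:137314446-137314695 (minus strand) for Ebf3. Capitals mark a match to the core of the EBF family motif.
Foxc1: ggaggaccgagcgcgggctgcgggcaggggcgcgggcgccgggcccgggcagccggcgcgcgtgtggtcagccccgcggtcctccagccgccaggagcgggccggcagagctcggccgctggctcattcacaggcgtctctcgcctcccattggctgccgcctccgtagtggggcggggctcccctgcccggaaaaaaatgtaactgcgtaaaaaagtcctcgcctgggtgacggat
Cxcl12: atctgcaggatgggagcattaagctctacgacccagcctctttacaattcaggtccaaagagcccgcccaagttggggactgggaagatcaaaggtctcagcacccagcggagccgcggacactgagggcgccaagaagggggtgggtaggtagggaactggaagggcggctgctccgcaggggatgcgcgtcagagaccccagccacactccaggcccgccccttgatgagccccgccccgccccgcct
Lepr: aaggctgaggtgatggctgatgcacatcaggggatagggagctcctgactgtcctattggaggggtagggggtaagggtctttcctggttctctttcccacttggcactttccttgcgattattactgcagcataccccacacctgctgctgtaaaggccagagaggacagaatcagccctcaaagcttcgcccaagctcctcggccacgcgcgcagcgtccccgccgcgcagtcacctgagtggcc
Ebf3: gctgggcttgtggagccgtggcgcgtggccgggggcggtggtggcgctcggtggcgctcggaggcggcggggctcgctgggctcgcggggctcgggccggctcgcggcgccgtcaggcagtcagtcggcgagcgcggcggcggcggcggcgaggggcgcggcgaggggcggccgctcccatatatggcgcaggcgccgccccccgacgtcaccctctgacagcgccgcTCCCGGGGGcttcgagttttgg

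The windows searched were 300 bases long, 250 of them before the RefSeq start. The EBF core was searched as CCCNNGGGA on both strands, and 2154 of 32851 promoter windows in the RefSeq table held it (6.56%). Among the members it was found in the Ebf3 window, from position -22 to -14 relative to the RefSeq start, and in no other member window. The forkhead core, searched as GTAAACA on both strands, was in 3.65% of all windows and in none of the members' windows. A match is a description of the letters and not of a bound site. The GC content of the sequences shown was 72.6% for Foxc1, 64.4% for Cxcl12, 58.7% for Lepr and 80.0% for Ebf3.

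Compared per unit of exon length, the 7 genes spanned a wide range of levels in these caps. Cxcl12 was the most abundant, at 214 to 371 TPM (estimated counts divided by merged exon length and scaled to the same total in each library) over the 8 libraries. It ranked between place 222 and place 383 of 48909 genes. Vcam1 came next at 47.5 to 74.5 TPM, followed by Lepr at 25.6 to 44.2 TPM. Foxc1, at 14.6 to 39.2 TPM, and Kitl, at 19.5 to 28.8 TPM, took the middle places. Ebf3 lay at 7.22 to 17.3 TPM, and Il7 was the least abundant at 1.21 to 2.45 TPM. In each of the 8 libraries Cxcl12 exceeded Vcam1, Vcam1 exceeded Lepr, Kitl exceeded Ebf3 and Ebf3 exceeded Il7, with ranges that did not touch. With the longest transcript as length, however, Kitl exceeded Ebf3 in 6 of 8 libraries and their ranges overlapped (17.4 to 25.6 and 11.3 to 27.2 TPM). The order of Lepr, Foxc1 and Kitl was less firm, because Lepr exceeded Foxc1 and Foxc1 exceeded Kitl in 6 of 8 libraries each and their ranges overlapped.

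**Figure D1:**
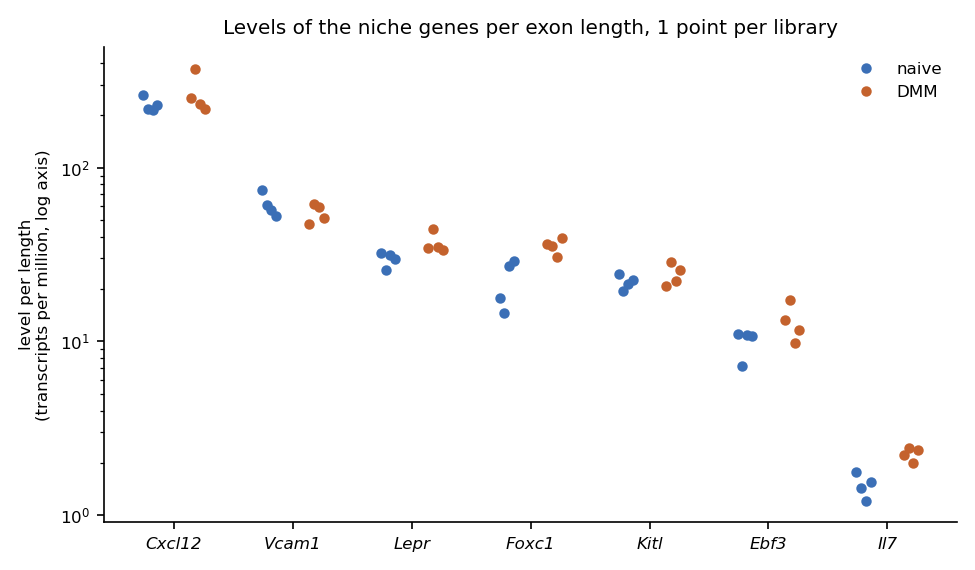
Level of each of the 7 genes per merged exon length (TPM, log axis), 1 point per library, with naive libraries in blue and DMM libraries in orange. Cxcl12 lies above the other genes in every library, Il7 lies below them, and the points of Lepr, Foxc1 and Kitl overlap.

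None of the 7 genes was called between the groups. Calls required both an adjusted p in DESeq2 (Benjamini-Hochberg, 0.05 or less) and a change of at least 1.5-fold, a rule that picked 2429 of the 17760 genes that received an adjusted p, here called tested (13.7%), 1377 of them higher in DMM (7.75%) and 1052 lower (5.92%). All 7 members were tested. At an unadjusted p under 0.05 the number was 1, and edgeR's quasi-likelihood test called 0. The share of all genes under that unadjusted threshold was not counted. It is at least 22.6%, the share that passed on adjusted p, which is never below the unadjusted p. One member, Foxc1, passed on adjusted p alone, where 22.6% of all genes did. Its groups were also the only ones that did not overlap, against 22.2% of all genes. The median log2 fold change was 0.14 over the members and -0.02 over all tested genes.

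Foxc1 (ENSMUSG00000050295, chromosome 13, 31806633 to 31812476, plus strand, GRCm38) encodes a forkhead factor needed for reticular cell identity, and its single exon makes up the whole gene. Normalised counts were 562, 495, 777 and 793 in naive replicates 1 to 4 and 945, 952, 855 and 1038 in DMM replicates 1 to 4. Every DMM library lay above every naive library, and naive replicates 1 and 2 lay apart from naive replicates 3 and 4. In DMM it was higher by 0.53 on the log2 scale (SE 0.17, 95% interval 0.21 to 0.85, DESeq2 adjusted p = 0.00976), or 1.44-fold, just under the fold threshold. The adjusted p rose to 0.0548 without naive replicate 1, with a log2 fold change of 0.46. Foxc1 passed both thresholds without naive replicate 3 (0.62), without naive replicate 4 (0.63) and under total-count scaling (0.67).

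Ebf3 (ENSMUSG00000010476, chromosome 7, 137193673 to 137314445, minus strand) encodes the second factor of reticular cell identity. Normalised counts were 551, 386, 488 and 464 in the naive libraries and 548, 735, 436 and 491 in the DMM libraries. DMM replicate 2 stood highest and the other DMM libraries lay within the naive range. A log2 difference of 0.22 did not pass (SE 0.18, 95% interval -0.13 to 0.58, DESeq2 adjusted p = 0.421). A pair of antisense genes with about 22.2 and 21.2 estimated counts per library overlaps Ebf3, and the use of strand in counting was not stated.

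Cxcl12 (ENSMUSG00000061353, chromosome 6, 117168535 to 117181367, plus strand) was measured at 11612, 10237, 8531 and 8684 normalised counts in naive replicates 1 to 4. The DMM libraries held 9176, 13994, 9109.7 and 8091. DMM replicate 2 was the highest of the 8 libraries and DMM replicate 4 the lowest. Between the groups the log2 difference was 0.05 (SE 0.18, 95% interval -0.30 to 0.40, DESeq2 adjusted p = 0.895), an interval that runs from 0.811-fold to 1.32-fold. The value was -0.15 without DMM replicate 2 and -0.01 without naive replicate 3 or naive replicate 4, so its sign was not stable.

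Kitl (ENSMUSG00000019966, chromosome 10, 100015630 to 100100416, plus strand), the ligand of the stem cell receptor KIT, was at 786, 668, 614 and 626 normalised counts in naive libraries. It was at 549.8, 785, 632 and 687 in DMM libraries. Both groups covered nearly the same range. DMM over naive gave -0.02 on the log2 scale (SE 0.14, 95% interval -0.30 to 0.26, DESeq2 adjusted p = 0.937), and its sign turned under total-count scaling (0.13). The interval in fold terms was 0.81 to 1.19.

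Il7 (ENSMUSG00000040329, chromosome 3, 7569994 to 7613760, minus strand), the cytokine of early B cell growth, had the fewest counts of the 7 genes. Normalised counts were 54.5, 47.9, 33.2 and 40.8 in naive replicates 1 to 4 and 56.4, 64.5, 54.3 and 61.4 in DMM replicates 1 to 4. Only naive replicate 1 reached the DMM range, by a margin smaller than 1 count. Its log2 fold change was 0.42 (SE 0.25, 95% interval -0.07 to 0.90, DESeq2 adjusted p = 0.234). At 31.2 or more estimated counts per library, an increase of 1.5-fold lies inside this interval and could not be told from none. The antisense gene Gm16685, with 22.8 estimated counts per library on average, overlaps Il7.

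Lepr (ENSMUSG00000057722, chromosome 4, 101717404 to 101815352, plus strand), the leptin receptor by which these cells are usually marked, was at 1229, 1046, 1079.9 and 977 normalised counts in naive libraries. It was at 1093, 1438, 1181 and 1076 in DMM libraries. DMM replicate 2 was highest and the remaining libraries of both groups overlapped. The log2 fold change was 0.14 (SE 0.13, 95% interval -0.11 to 0.40, DESeq2 adjusted p = 0.488), or 0.925-fold to 1.32-fold.

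Vcam1 (ENSMUSG00000027962, chromosome 3, 116109949 to 116129688, minus strand), which tethers cells that carry the integrin made of ITGA4 and ITGB1, was the member with the lowest log2 fold change. Normalised counts were 3586, 3150 and 2447 in naive replicates 1 to 3, with 2167 in naive replicate 4. The DMM libraries held 1884, 2538, 2522 and 2076. Naive replicates 1 and 2 lay above all other libraries, and the groups overlapped. Its log2 fold change of -0.33 did not pass (SE 0.17, 95% interval -0.67 to 0.01, DESeq2 adjusted p = 0.165). Without naive replicate 4 the adjusted p was 0.0308, at -0.44.

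**Figure D2:**
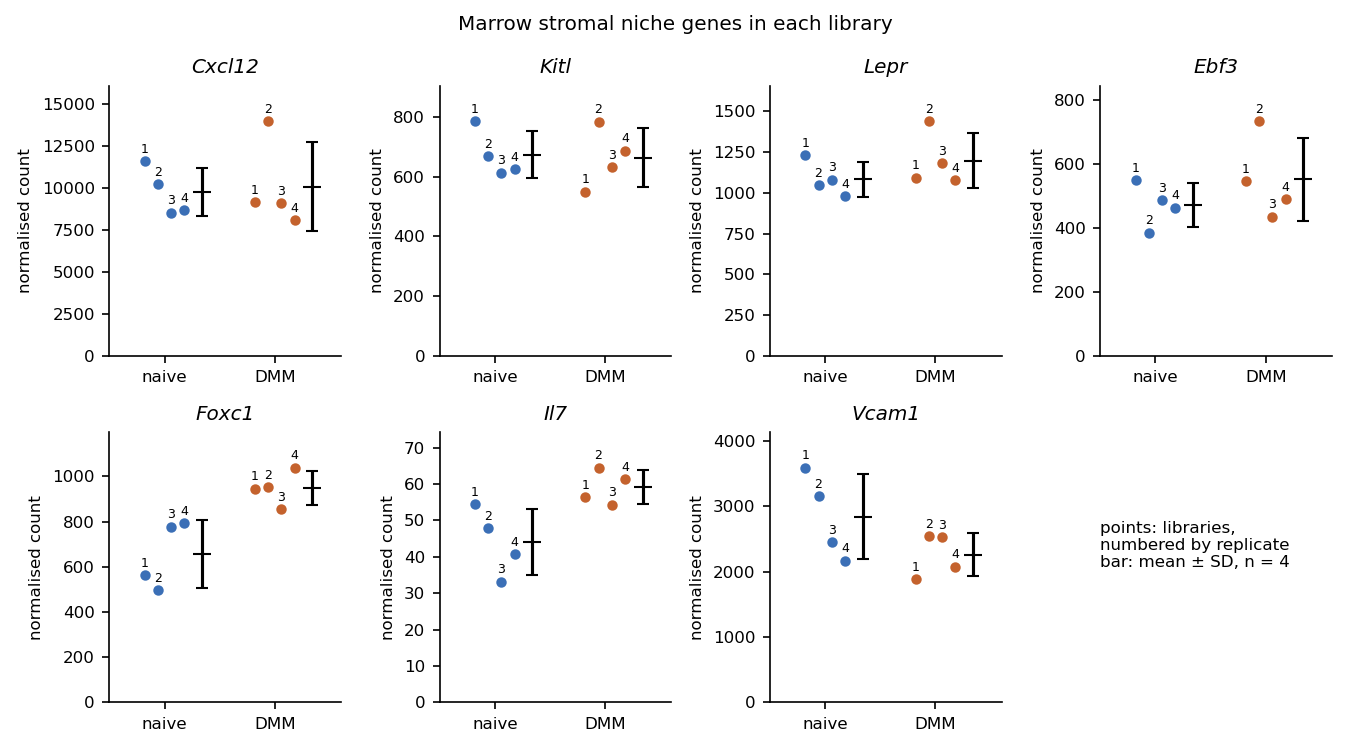
DESeq2-normalised counts of the 7 genes in each library, with points numbered by replicate, each axis starting at 0, and bars giving the mean and SD (n = 4). Foxc1 is the only gene for which all DMM points (855 to 1038) lie above all naive points (495 to 793), and DMM replicate 2 stands highest in its group for the 6 other genes.

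The 4 intervals of Cxcl12, Kitl, Lepr and Ebf3 all lay inside the 1.5-fold limits in both directions, whereas those of Foxc1 and Il7 reached past the upper limit and that of Vcam1 past the lower. The limits lie at 0.58 on either side of 0 on the log2 scale. An adjusted p above the threshold does not show that a level was the same in both groups.

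Within the groups, the libraries that were high for one niche gene were often high for others. Naive replicate 1 was the highest naive library for 6 of 7 members and DMM replicate 2 the highest DMM library for 6 of 7. Foxc1 was the exception in both groups, with its highest values in naive replicate 4 and DMM replicate 4. After removal of group means, log2 values over the 8 libraries gave a Pearson r of 0.91 between Cxcl12 and Lepr, 0.78 between Kitl and Lepr, and 0.74 between Cxcl12 and Kitl. Kitl and Vcam1 also gave 0.74. Lepr with Ebf3, Lepr with Vcam1 and Kitl with Il7 gave 0.73 each. The lowest values among members other than Foxc1 were 0.44 for Lepr and Il7, 0.27 for Ebf3 and Il7 and 0.15 for Ebf3 and Vcam1. Foxc1 gave -0.79 with Vcam1 and -0.63 with Il7. These coefficients are descriptions, since all points share libraries, scaling and tissue pieces.

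**Figure D3:**
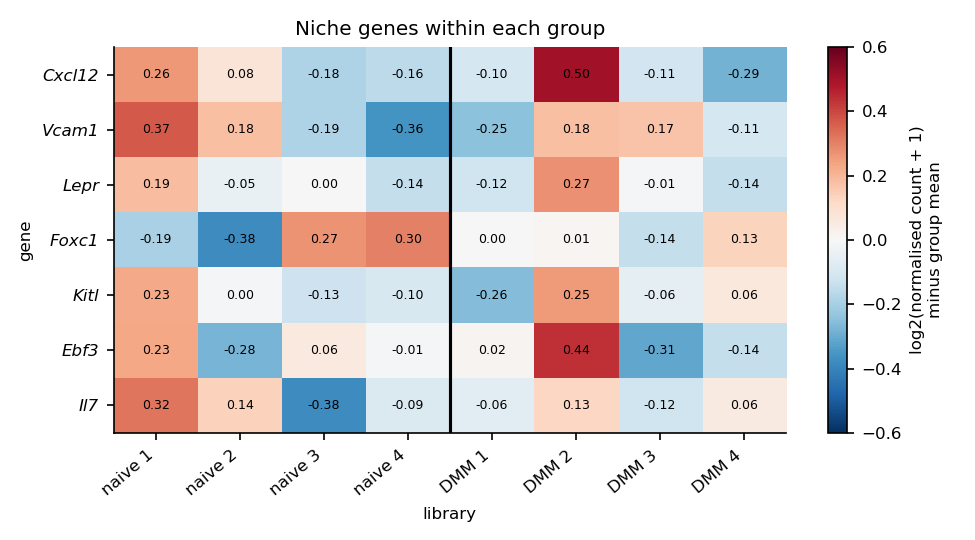
Each cell gives a gene's log2(normalised count + 1) in 1 library minus the mean of that library's group, with genes in rows, libraries in columns and a line between naive and DMM. DMM replicate 2 reaches 0.50 for Cxcl12 and 0.44 for Ebf3, while Foxc1 is at 0.01 there and at 0.30 in naive replicate 4.

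Levels of marker lists for other cell types varied between the same libraries, and their part in these patterns was not tested. Each list was taken for this as the log2 of its summed normalised counts, with group means removed. The centred r of Cxcl12 was 0.90 with 12 endothelial genes, 0.75 with 15 early B cell genes, 0.61 with macrophage genes and 0.58 with adipocyte genes. It was 0.07 with erythroid genes and -0.35 with genes of fibroblasts and synovium. The lowest value was -0.56, with chondrocyte genes. Mast cell (-0.31), stem and progenitor (-0.30), neutrophil (-0.22), skeletal muscle (-0.15) and osteoblast and osteocyte genes (-0.08) lay between. For Foxc1 the same coefficients were -0.59 with endothelial genes, -0.41 with early B cell genes, -0.64 with macrophage genes and 0.06 with adipocyte genes. They were -0.81 with erythroid genes and 0.53 with genes of fibroblasts and synovium. Foxc1 gave -0.56 with osteoblast and osteocyte genes, -0.38 with mast cell genes and -0.30 with stem and progenitor genes. It gave -0.27 with neutrophil genes, -0.09 with chondrocyte genes and 0.39 with skeletal muscle genes. DMM replicate 2 also held the largest share of adipocyte transcripts, at 0.0737% of counts, where the other libraries lay between 0.0116% and 0.0433%. It held the largest shares of endothelial (0.0775%) and early B cell transcripts (0.0836%) too. Among naive libraries the adipocyte share was highest in replicate 4 (0.0311%), against 0.0195% in replicate 1. The endothelial (0.0661%) and early B cell (0.0468%) shares were highest in naive replicate 1.

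The same centred r was computed for each member against 13226 genes (mean normalised count of 50 or more) over the 8 libraries. Cxcl12 was followed most closely by Ddit4 (0.98), Qpctl (0.97) and Pex7 (0.97). Kitl was followed by Dctn6 (0.96), Opa1 (0.95) and Rsbn1 (0.95). For Lepr the closest genes were H2-T10 (0.98), Rsph3a (0.94) and Slc7a6os (0.94). For Ebf3 they were AC160336.1 (0.98), Cr2 (0.97) and Dpep1 (0.95). Foxc1 lay closest to Olfr63, Tg and Olfr161 (0.99 each). Il7 lay closest to Tmem241 (0.98), Resf1 (0.97) and Wdr3 (0.96), and Vcam1 to Klhdc2 (0.99), Rbm22 (0.99) and Slf2 (0.98). No member was among the 3 closest genes of another member. With 13226 genes compared over 8 libraries the closest genes reached a high r for every member, so no relation is read from them.

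The receptors and signalling partners of the niche genes were examined next, as 19 genes fixed in a list. Of these, 2 were called higher in DMM and 0 lower, beside 7.75% and 5.92% of all genes. On adjusted p alone 4 were higher and 3 lower (22.6% of all genes either way), and for 6 the groups did not overlap (22.2% of all genes). edgeR also called 0 of the 19 lower, beside 811 of the 18445 genes it tested. In DESeq2 9 of the 19 had an unadjusted p under 0.05, as did at least 22.6% of all tested genes. Their median log2 fold change was -0.01.

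CXCL12 is bound by the signalling receptor CXCR4 and by the scavenging receptor ACKR3. Ackr3 (ENSMUSG00000044337, chromosome 1, 90203980 to 90216751) was at 166, 204, 334 and 444 normalised counts in naive libraries and at 508, 472, 686 and 629 in DMM libraries. All DMM libraries lay above all naive libraries, a 2.0-fold increase (log2 SE 0.27, DESeq2 adjusted p = 0.00215). This call was kept under each alternative and each omission of a library. Cxcr4 went from 1086 ± 283 to 769 ± 115 normalised counts (SD, n = 4), with overlapping groups. The difference of -0.50 (log2) had an adjusted p of 0.0441 in DESeq2 that did not hold in edgeR (0.0831) or with total-count scaling (0.17). With the most abundant identifier left out of the total the adjusted p was 0.0353, and with TMM factors it was 0.056. Without single libraries the log2 difference ranged from -0.64 (without naive replicate 4, adjusted p = 0.00134) to -0.35 (without naive replicate 2, adjusted p = 0.195). It also missed the threshold without naive replicate 1 (0.149), naive replicate 3 (0.0552), DMM replicate 1 (0.164), DMM replicate 3 (0.0511) and DMM replicate 4 (0.0858). DPP4, a peptidase that trims CXCL12, had a transcript level that did not pass (log2 fold change 0.13, DESeq2 adjusted p = 0.681).

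Kit, the receptor for the Kitl product, was at 656, 659.9, 658 and 615 normalised counts in naive libraries and at 406, 587, 491 and 458 in DMM libraries. All DMM libraries lay below all naive libraries. This amounted to -0.42 on the log2 scale (SE 0.13, DESeq2 adjusted p = 0.0107), under the fold threshold. The adjusted p was 0.0549 without DMM replicate 1, 0.0516 without naive replicate 1 and 0.161 under total-count scaling. With the most abundant identifier left out of the total it was 0.0179. KIT is carried by stem cells and by mast cells. Of 7 mast cell genes 3 were tested, and all 3 were called lower, while of 11 stem and progenitor genes, Kit among them, 1 was called higher and 2 lower (7.75% and 5.92% of all genes). The part of these cells in the Kit values was not tested. Mmp9 and Adam17, proteases that release the membrane form of the KIT ligand or other surface proteins, had log2 fold changes of 0.06 and 0.11 and did not pass (DESeq2 adjusted p = 0.873 and 0.561).

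The IL7 receptor genes Il7r and Il2rg had log2 fold changes of -0.01 and -0.05 (DESeq2 adjusted p = 0.992 and 0.878). Il7r spanned 337 to 588 normalised counts in naive and 266 to 587 in DMM libraries. The kinases and transcription factors beneath this receptor did not pass, with log2 fold changes of -0.13 for Jak1, 0.16 for Jak3, -0.24 for Stat5a and -0.11 for Stat5b. Values for Il2rg, Jak3, Stat5a and Stat5b are less certain, because 28.7%, 8.29%, 11.7% and 15.2% of their 31-base words also occur in other genes. Il2rg shares these words with Gm20489, which had 1.4 estimated counts per library on average.

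Leptin receptor signalling runs through JAK2 and STAT3, and SOCS3 is its feedback inhibitor and a target of many other cytokines. Socs3 (ENSMUSG00000053113, chromosome 11, 117966079 to 117970047) was at 129, 188, 193 and 231 normalised counts in naive libraries and at 461, 361, 496 and 275 in DMM libraries. All DMM libraries lay above all naive libraries, and the increase of 1.11 (log2, SE 0.22, DESeq2 adjusted p = 2.56e-05) was called in every alternative. Stat3 was higher in DMM by 0.28 (log2, SE 0.08, DESeq2 adjusted p = 0.00619) with groups that did not overlap, under the fold threshold, and its adjusted p was 0.0582 without naive replicate 1. Stat3 overlaps Stat5a on the opposite strand. Jak2 was at -0.26 on the log2 scale (DESeq2 adjusted p = 0.0565), with adjusted p of 0.028 without naive replicate 4 and 0.0304 without DMM replicate 3. With all 8 libraries it was 0.0449 after a filter for 10 counts in 4 libraries. With the most abundant identifier left out of the total count it was 0.0354. In edgeR it was 0.0939 and with TMM factors in DESeq2 0.089. The leptin gene Lep itself was scarce and scattered, from 2.14 to 38.5 normalised counts in naive and from 4.51 to 76.3 in DMM libraries. Its log2 fold change of 1.31 (SE 1.09) did not pass (DESeq2 adjusted p = 0.44) and was 2.59 without naive replicate 4 (adjusted p = 0.0109).

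Among the integrin partners of VCAM1, Itga4 was at 4239, 3927, 3500 and 3202 normalised counts in naive libraries and between 2820 and 2987 in DMM libraries. The groups did not overlap, and the log2 fold change was -0.35 (SE 0.11, DESeq2 adjusted p = 0.0089), under the fold threshold. The adjusted p was 0.0674 without naive replicate 1 and 0.211 under total-count scaling. With the most abundant identifier left out of the total it was 0.00477. Itgb1, the partner chain that many cell types share, went the other way, from 4186 ± 198 to 5082 ± 585 normalised counts (SD, n = 4), at 0.28 (DESeq2 adjusted p = 0.0374; edgeR 0.0755). Its adjusted p also lay above 0.05 without naive replicates 1, 2 or 3 or without DMM replicates 1, 3 or 4 (0.0517 to 0.14). Itgb7 was at -0.41 on the log2 scale (DESeq2 adjusted p = 0.127), which was -0.60 without DMM replicate 1 (adjusted p = 0.00901).

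**Figure D4:**
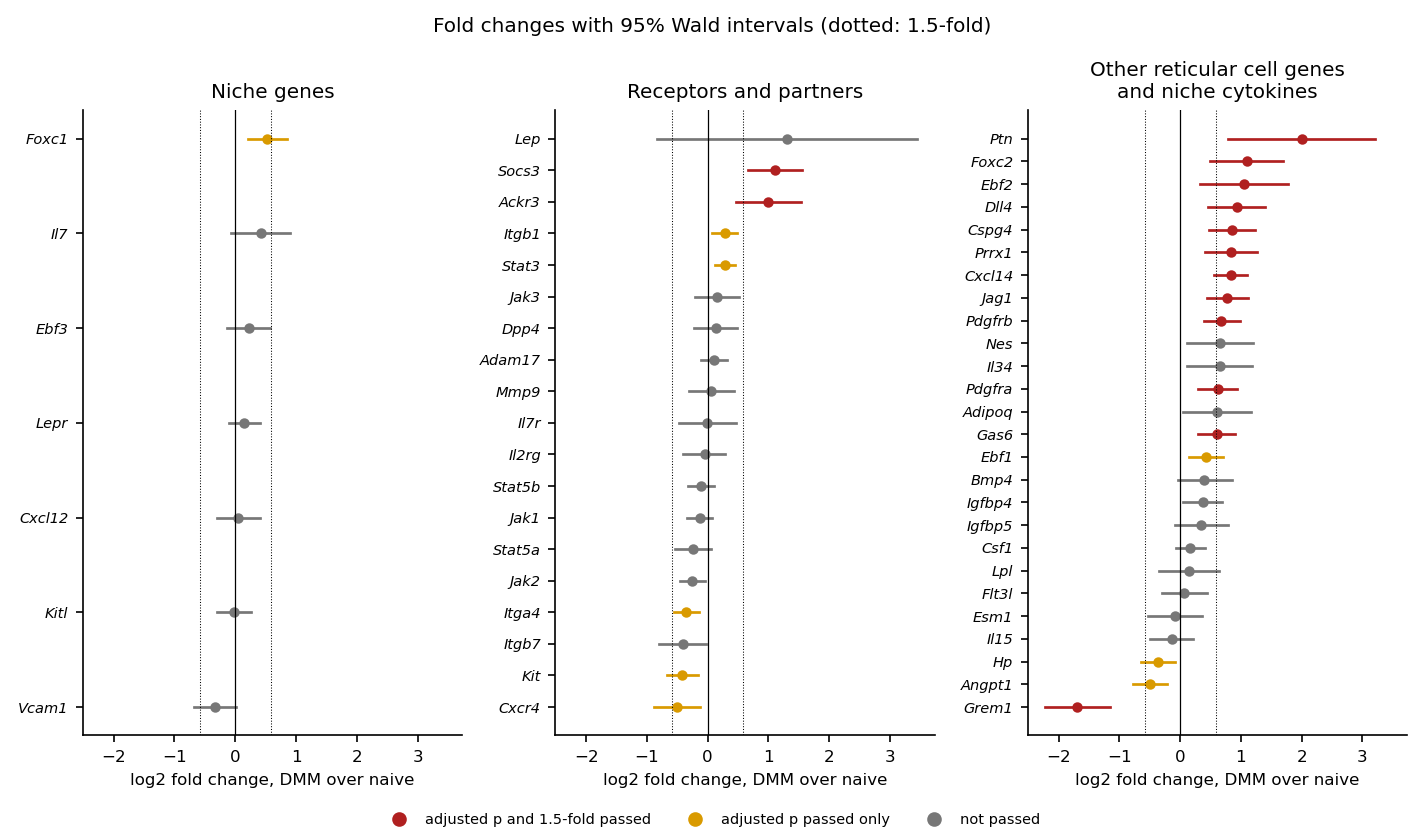
Log2 fold change, DMM over naive, with 95% Wald intervals for the 7 niche genes, their 19 receptors and partners, and the 26 tested genes of the lists of other reticular cell genes and niche cytokines (dotted lines at 1.5-fold). The niche genes lie between -0.33 (Vcam1) and 0.53 (Foxc1) with none in red. Ackr3, Socs3 and 12 genes of the right panel are called, where 13.7% of all tested genes were.

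Ligand and receptor were also set against each other within each library, as log2 ratios of estimated counts (with a pseudocount of 1). These ratios need no scaling between libraries, were chosen after the values were seen and carry no test. For Kitl over Kit the ratio was 0.26, 0.02, -0.10 and 0.03 in naive libraries and 0.44, 0.42, 0.36 and 0.58 in DMM libraries. Every DMM library lay above every naive library, with means of 0.05 ± 0.15 and 0.45 ± 0.09 (SD, n = 4). For Cxcl12 over Cxcr4 the means were 3.19 ± 0.28 and 3.69 ± 0.30 (SD, n = 4), and the groups overlapped. For Cxcl12 over Ackr3 they were 5.18 ± 0.85 in naive and 4.12 ± 0.56 in DMM libraries, again with overlap. Il7 over Il7r went from -3.32 ± 0.38 to -2.86 ± 0.41 and Vcam1 over Itga4 from -0.41 ± 0.15 to -0.38 ± 0.20, both with overlapping groups. Counts are not divided by length here, so only the difference between groups can be read from a ratio.

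**Figure D5:**
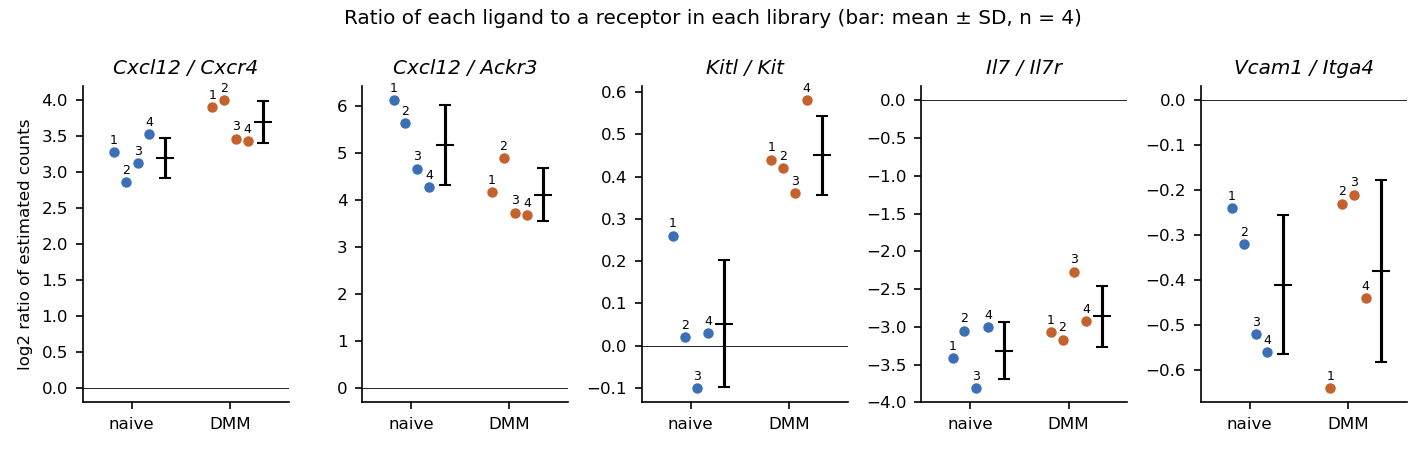
Log2 ratio of the estimated counts of a niche gene to those of a receptor in each library, with points numbered by replicate and bars giving the mean and SD (n = 4); each panel has its own axis. The 4 DMM points of Kitl over Kit (0.36 to 0.58) lie above the 4 naive points (-0.10 to 0.26), and the groups overlap in the other panels.

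Other genes used to describe reticular cells were taken from a list as well. Of 18 such genes, all tested, 8 were called higher and 1 lower (7.75% and 5.92% of all genes), with a median log2 fold change of 0.60. The list is not specific to marrow, since it also holds general mesenchymal genes, and it includes the relatives of Ebf3 and Foxc1. It shares genes with the fibroblast, early B cell and adipocyte lists given below, Pdgfra and Ebf1 among them. Foxc2, the close relative of Foxc1, was at 29.0, 43.9, 89.9 and 73.7 normalised counts in naive libraries and at 129, 142, 127 and 107 in DMM libraries. All DMM libraries lay above all naive libraries, an increase of 1.10 on the log2 scale (SE 0.30, DESeq2 adjusted p = 0.00323). Foxc1 and Foxc2 share 34 words of 31 bases among the 5814 of Foxc1. Of the EBF genes, Ebf1 was higher in DMM (log2 0.43, DESeq2 adjusted p = 0.0198), under the fold threshold. Ebf2 was scarcer, at 32.2 ± 16.7 and 66.6 ± 22.5 normalised counts (SD, n = 4). Its call (1.05, DESeq2 adjusted p = 0.0268) was lost in edgeR (adjusted p = 0.066) and without DMM replicates 1 (0.17) or 3 (0.0543) or naive replicates 1 (0.0956), 2 (0.0991) or 3 (0.0745).

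The receptors for platelet-derived growth factor that mark stromal cells were both called, at 0.62 for Pdgfra (DESeq2 adjusted p = 0.00183) and 0.68 for Pdgfrb (DESeq2 adjusted p = 0.000132). The chemokine Cxcl14 rose from 855 ± 56.1 to 1521 ± 260.4 normalised counts (SD, n = 4; log2 fold change 0.83, DESeq2 adjusted p = 1.21e-07). Prrx1, a factor of limb mesenchyme, rose by 0.83, the pericyte proteoglycan gene Cspg4 by 0.85 and Gas6, a ligand of TAM receptors, by 0.60 on the log2 scale. The call of Pdgfra fell below 1.5-fold without naive replicate 1 (0.53), DMM replicate 1 (0.57) or DMM replicate 3 (0.54). That of Gas6 did so without naive replicates 2 (0.57) or 3 (0.53) or DMM replicates 1 (0.58), 2 (0.56) or 3 (0.54). Grem1, a BMP antagonist, fell by 1.69 on the log2 scale (SE 0.27, DESeq2 adjusted p = 4.63e-08), from 834, 498, 934 and 567 normalised counts in naive libraries to 192, 277, 123 and 286 in DMM libraries. The most abundant genes of the list were Igfbp5 (0.35, DESeq2 adjusted p = 0.29), Igfbp4 (0.37, adjusted p = 0.0874) and Hp (-0.36, adjusted p = 0.0493), none of them called.

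Of 11 other niche cytokines, 8 were tested, and 3 of these were called higher and 0 lower, beside 7.75% and 5.92% of all genes. edgeR called 0 lower too, beside 811 of the 18445 genes it tested. An unadjusted p under 0.05 in DESeq2 was found for 5, as for at least 22.6% of all tested genes. The Notch ligand genes Jag1 and Dll4 rose (log2 0.78 and 0.93, DESeq2 adjusted p = 0.000121 and 0.00131). Ptn, a heparin-binding growth factor, went from 18.5, 41.2, 83.5 and 59.0 normalised counts in naive to 243, 89.2, 361 and 115 in DMM libraries (4.0-fold, DESeq2 adjusted p = 0.0087), and this call was narrowly lost without DMM replicate 1 (adjusted p = 0.0505). Angpt1, a vessel-stabilising ligand, was at -0.49 on the log2 scale (DESeq2 adjusted p = 0.00589), under the fold threshold. Csf1 did not pass (0.17, DESeq2 adjusted p = 0.33). Tslp, Thpo and Csf3, at 12.5 normalised counts or fewer in any library, received no adjusted p because of the filter on low means.

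The libraries held transcripts of many cell types, set out here as 12 marker lists. Calls within the lists are given per tested gene, beside 7.75% of all genes called higher and 5.92% lower. The depth was 12479443 to 16548002 estimated counts per library. The labels give chondrocytes, and Col2a1, Acan, Sox9 and Comp were well above 0 in every library while Matn1 was at 11.97 normalised counts or fewer. The chondrocyte list held 0.342% to 0.505% of counts in naive and 0.806% to 1.43% in DMM libraries, with 6 of 13 tested genes called higher. Haematopoietic transcripts, which label marrow and blood rather than cartilage, were abundant: the neutrophil list held 0.921% to 1.29% in naive and 0.436% to 0.915% in DMM libraries (11 of 12 genes called lower), and the erythroid list 1.11% to 1.84% and 0.612% to 1.29% (10 of 11 lower). The osteoblast and osteocyte list held 1.40% to 2.03% and 3.89% to 4.86% (10 of 12 higher). For the neutrophil, osteoblast and chondrocyte shares the groups did not overlap. The exact permutation test gave each a two-sided p of 0.0286, the smallest 70 assignments allow, and 0.114 after adjustment over 12 lists. None of the 12 shares passed after adjustment. With 4 libraries per group a pass needs many lists at that smallest p together, so no conclusion is drawn from this. Of the remaining lists, 4 of 12 endothelial genes were called higher and 1 lower, and 1 of 15 early B cell genes higher. Of fibroblast and synovium genes 5 of 10 were called higher, of macrophage genes 1 of 9 lower and of adipocyte genes none of 8. An unadjusted p under 0.05 in DESeq2 was found for 5 adipocyte genes, as for at least 22.6% of all tested genes. The part of these cells in the values of the niche genes was not tested.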

How the data were processed

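RNA-seq of medial cartilage caps was analysed from 4 naive and 4 DMM mice. The deposited table holds estimated counts per gene, which the authors obtained with kallisto after read trimming (Trimmomatic) and a gene-level sum in tximport. A read that fits several transcripts is divided between them, and 39.2% of values were not whole. The labels name a human build for these mouse samples and the methods a GRCm38 annotation whose release belongs to a later assembly, so the build behind the counts is uncertain. The labels and the methods also name different library kits. Neither was resolved, and coordinates and exon lengths are from GENCODE vM21 (GRCm38), looked up by identifier. Totals ranged from 12479443 to 16548002. A symbol was found for 48855 identifiers, with 86.6% of counts.

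Counts were rounded and tested over the whole table with DESeq2 1.42.0 in R 4.3.3 (Wald test, median-of-ratios factors, default filters, unshrunken fold changes, all 8 libraries, no covariates). DESeq2 with the Wald test is also what the methods of the study name, and the other settings were chosen here. Genes at an adjusted p of 0.05 or less and at least 1.5-fold were called, and intervals are Wald intervals at 95%. P-values measure the spread between mice, 1 library each. Shares of marker lists were compared by a two-sided exact permutation test over 70 assignments. TPM values divided estimated counts by merged exon length. Likeness was Pearson's r of log2(normalised count + 1) after removal of group means. Words of 31 bases shared between transcripts were counted over the annotation.

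Named genes are the 7 members, 19 receptors and partners, the called and 3 most abundant genes of the lists of other reticular cell genes and niche cytokines, and the 3 genes most like each member. Ebf1, Nes, Tslp, Thpo, Csf3, Acan, Sox9, Matn1 and antisense genes are outside this rule and were named after their values were seen. The rule also takes the 2 most abundant genes of each cell type list, which are given here as list shares and counts. Members and lists were chosen with earlier results of these data known. Tests were run on simulated data first. Alternatives were edgeR 4.0.16 (quasi-likelihood test), TMM or total-count scaling, other filters, no fold threshold, the replicate number as a block, omission of each library, another basis for shares and another length. Whether same-numbered mice varied together was checked, and the correlations of their deviations are given with the block result. The erythroid gene Ahsp was not found in the table under that symbol.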

Additional observations from a re-analysis of the deposited data

Results flagged for a closer look

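In groups of 4, a value was marked when its gap to the nearest other library took up most of the group's range (Dixon's test at its 95% critical value), and 5 of 76 groups examined had such a value, where chance gives about 3.8 (1 in 20). None of the 7 niche genes was among them. Kit in naive replicate 4 was low, at 615 normalised counts, with the other naive libraries between 656 and 659.9. Stat5b in DMM replicate 4 was low, at 962, with the others between 1060.3 and 1069.6. Lep in naive replicate 4 was high, at 38.55, with the others between 2.141 and 7.982. The erythroid list in DMM replicate 3 held 1.289% of counts, with the other DMM libraries between 0.6117% and 0.6696%. The skeletal muscle list in DMM replicate 1 held 0.02607% of counts, with the other DMM libraries between 0.001664% and 0.003444%.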

How the results depend on the processing

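The count of niche genes called was 0 and became 1 (Foxc1) with total-count scaling, with no fold threshold, and without naive replicate 3 or 4 (range 0 to 1 over omissions of a library). The count of receptors and partners called was 2 and became 7 with no fold threshold, and ranged from 2 to 4 when a library was left out. With the replicate number as a replicate block, 0 niche genes, 2 receptors and partners, 9 other reticular cell genes (Ebf2 lost, Nes gained) and 3 cytokines were called, and 2081 genes in all. Same-numbered mice correlated at 0.05, 0.06, -0.12 and 0.12, so the numbers were not taken as pairs. Under the block Cxcr4 (adjusted p = 0.0607), Stat3 (0.0611) and Itgb1 (0.118) were above 0.05. Total-count scaling called 2519 genes, 2030 higher and 489 lower, against 1377 and 1052, and shifted the median log2 difference over genes (mean count 10 or more) from -0.01 to 0.14. With no fold threshold 4010 genes passed. When the most abundant identifier was left out of the total, an alternative chosen after seeing the data, that median was 0.01. With that reduced total 0 niche genes were called.

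Small fold changes turned sign. Kitl was 0.00 with TMM factors, 0.13 with total-count scaling and 0.01 with the reduced total, and Il7r was 0.01 in edgeR, 0.02, 0.14 and 0.03 under the same scalings. Under total-count scaling Il2rg was 0.11, Jak1 0.03 and Stat5b 0.05. Over omissions of a library, Cxcl12 ranged from -0.15 to 0.14, Kitl from -0.11 to 0.06, Mmp9 from -0.04 to 0.20, Il7r from -0.16 to 0.18 and Il2rg from -0.15 to 0.05. Foxc1 ranged from 0.42 to 0.63, and its adjusted p lay between 0.00137 and 0.0548 over all alternatives. With the longest transcript in place of merged exons as length, mean levels went from 249 to 308 TPM for Cxcl12, from 58.1 to 107 for Vcam1 and from 11.5 to 18.1 for Ebf3, which overlapped Kitl (from 23.2 to 20.6). As a percentage of normalised counts with a symbol, the stem and progenitor share differed by -0.00195 (DMM minus naive, exact permutation p = 0.0857), against -0.000272 of all counts (p = 0.686). The causes were not tested.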
